A study of Mus musculus with 6 samples.

Results

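Transcripts of the Egr and Nr4a immediate early factors, together with Nab2 and Srf, were examined in taste cells of young and older adult mice. The members were 8 genes of the 23361 in the table, namely the zinc finger factors Egr1, Egr2 and Egr3, the orphan nuclear receptors Nr4a1, Nr4a2 and Nr4a3, the Egr corepressor Nab2 and the serum response factor gene Srf. All 8 were found under their own symbols. They were chosen by a named list that was drawn up after the difference between the ages had been seen in this same table, so the differences given here are a description and no test was made of them.

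Taste cells were freed by enzyme treatment from CV and Fol papillae, that is the circumvallate papilla at the rear of the tongue and the foliate papillae along its edges. The animals were C57BL/6 mice with no transgene or treatment, at 2 months or at 6 months of age by the sample labels, although the design text names 3 months in one place. Each age had 3 libraries, each from the pooled cells of several mice. By the methods, a pool held more mice at 2 months than at 6 months, so pool size went with age. RNA of both ages was extracted at the same time. Whether pool size or cell collection bears on the levels was not tested. The table holds 1 value per gene and age in FPKM, a count of sequenced fragments scaled for transcript length and library size. Library by library values were not analysed here, so there is no replicate check and no SD for any difference, and depth is unknown. Taste cell markers were present, since all 10 listed were expressed, meaning here that the mean of both ages reached 1 FPKM, and together they summed to 511 FPKM in younger and 466 FPKM in older cells. Krt8, a keratin of mature taste cells, had the highest level of them, at 234 and 197 FPKM. In such bulk RNA, fewer cells of a type and less RNA per cell cannot be told apart.

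Immediate early genes are transcribed soon after a stimulus reaches a cell, without new protein synthesis. Serum response factor (SRF) sits at their promoters and answers the ERK kinase cascade through Elk cofactors and actin through myocardin-related cofactors, while CREB answers cAMP and calcium. Egr proteins bind GC-rich DNA through zinc fingers and are held in check by the corepressors Nab1 and Nab2, of which Nab2 is itself induced by Egr1. Nr4a proteins bind DNA as monomers or dimers, need no known hormone, and are set mainly by how much of them is made.

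Promoter sequence was examined first, because SRF and CREB are the factors best known for starting these genes. RefSeq promoter windows on GRCm38.p6, running from 250 bases before to 50 bases after a start site, matched 6 of the 8 members, and Egr1 and Egr3 had no entry. The CArG box, which SRF binds, was searched on both strands and found in 1.63% of all 32851 windows and at least 2 times in 0.0183%. The Srf window held 2, beginning at positions -82 and -62 from the start, and 4 of the 5 windows of Egr2 held 1. These were 2 distinct boxes, since the windows of Egr2 starts 3, 4 and 5 overlap and hold the same box, and the window of start 2 holds another. The stretches are shown with the CArG boxes in capitals, from the minus strand of chr17:46556203-46556256 for Srf and from the plus strand of chr10:67537785-67537818 for the window of the third Egr2 start.
Srf: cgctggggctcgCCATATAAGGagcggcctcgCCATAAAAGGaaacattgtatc
Egr2: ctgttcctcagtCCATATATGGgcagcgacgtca

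The TGACG core of the cAMP response element, counted on both strands, occurred in 20.8% of windows and at least 4 times in 0.231%. The windows of Nr4a1, Nr4a2 and Nr4a3 each held 4, so the trait was shared by the 3 receptors and was not used in choosing them. Fewer cores lay in other windows, with the same 2 for Egr2 starts 3, 4 and 5. The family gene Egr4 also had 2, and Srf and Nab1 had 1 each. At least 2 were found in 5.01% of windows. The full element TGACGTCA, present in 1.79% of windows and overlapping the core by construction, matched none of the members' windows. The core nearest to the start began at position -40 in Nr4a1, -111 in Nr4a2 and -147 in Nr4a3. Of the Nr4a3 stretch, the last 22 bases lie on an annotated exon. The stretches are shown with the cores in capitals (on the opposite strand the core reads CGTCA), from the plus strand of chr15:101266601-101266822 for Nr4a1, the minus strand of chr2:57124098-57124215 for Nr4a2 and the plus strand of chr4:48045062-48045174 for Nr4a3.
Nr4a1: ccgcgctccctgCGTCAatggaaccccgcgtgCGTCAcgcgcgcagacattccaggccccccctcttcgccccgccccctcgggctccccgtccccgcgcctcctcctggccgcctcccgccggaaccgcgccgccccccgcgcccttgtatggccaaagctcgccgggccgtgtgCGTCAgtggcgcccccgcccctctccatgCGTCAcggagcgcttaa
Nr4a2: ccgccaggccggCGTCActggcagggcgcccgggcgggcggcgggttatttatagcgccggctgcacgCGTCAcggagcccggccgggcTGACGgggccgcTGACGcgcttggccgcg
Nr4a3: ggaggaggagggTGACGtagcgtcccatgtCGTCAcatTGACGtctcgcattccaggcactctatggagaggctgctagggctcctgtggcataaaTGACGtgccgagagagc

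The Egr site GCGTGGGCG, searched on both strands, was in 0.612% of windows and in none of the members' windows. It occurred 2 times in the window of Nab1, the corepressor that was not a member, which 0.0213% of windows reached. The only Nab2 window held no match to any of these motifs. On the minus strand it begins at 127666953, while the gene model used below reaches further upstream, to 127668568. The gene model of Nr4a1 likewise begins upstream of its window. Starts without a window were not searched. A match is a stretch of letters and not a measured binding site.

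**Figure D1:**
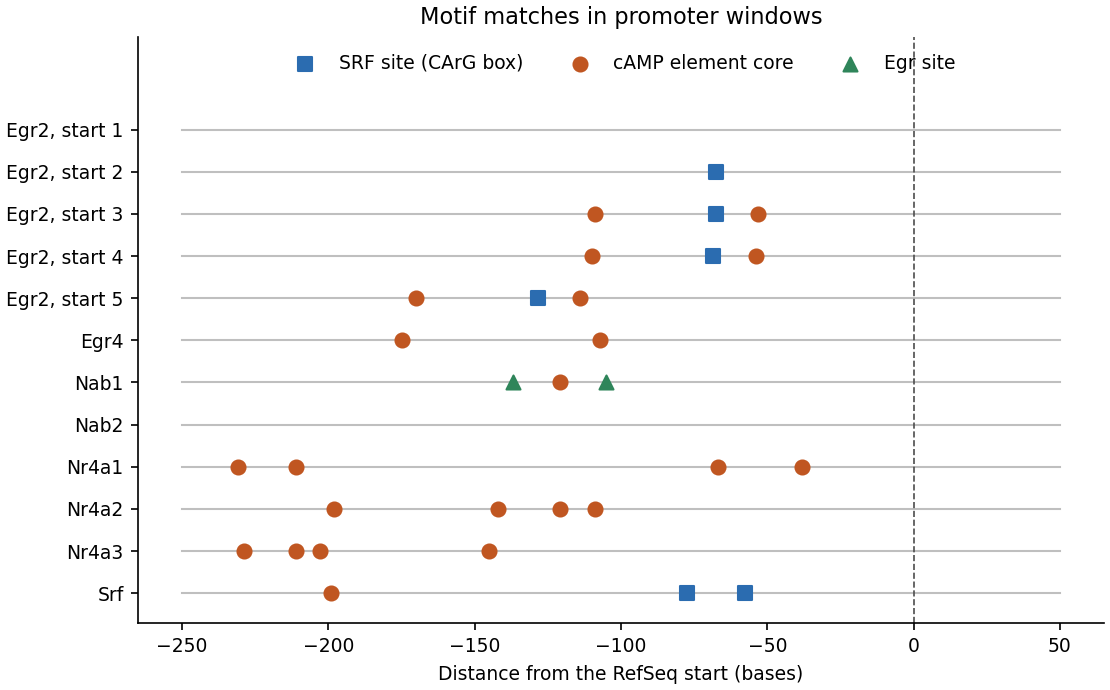
Positions of motif matches in RefSeq promoter windows, with distance from the start site in bases on the x axis and 1 line per start. Squares mark CArG boxes, circles the core of the cAMP response element and triangles the Egr site. In these windows the 3 Nr4a genes carry 4 cores each, Srf carries 2 CArG boxes, and Nab2 carries no match.

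Egr1 was the highest of the members at both ages and the one with the largest difference. Its level was 100.1 FPKM in younger and 31.1 FPKM in older cells, a value lower by 68.9%. On the log2(FPKM + 1) scale, which adds 1 FPKM to each value and so understates differences of weakly expressed genes, the difference of 6 minus 2 months was -1.65. That placed Egr1 in position 85 from the lowest among the 12652 expressed genes. Of those genes, 79 were listed at exactly 0 at one age, among them the abundant keratin genes Krt4, at 7334 and 0 FPKM, and Krt6a, at 0 and 3391 FPKM. Such zeros may be failed estimates, no member had one, and without these genes Egr1 was in position 37 of 12573. Egr1 also made up most of the members' RNA in younger cells. Its share of their summed FPKM was 65.5% at 2 months and 38.1% at 6 months, while the sum of the other 7 was 52.7 and 50.6 FPKM. Nearly all of the difference in the members' total therefore lay in Egr1.

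The other Egr genes were expressed far below Egr1. Egr3, known for its role in muscle spindles and lymphocytes, was measured at 3.67 FPKM in younger and 3.29 FPKM in older cells, with a log2(FPKM + 1) difference of -0.12. Egr2, or Krox20, a regulator of hindbrain segments and of myelination, had 1.10 and 0.732 FPKM. Its mean of 0.915 FPKM was under the filter of 1 FPKM. Without the added 1 FPKM its value was lower by 33.3%, or -0.58 in log2, while the log2(FPKM + 1) difference was -0.28, so the size given for Egr2 depends on the pseudocount. Egr4, the remaining family gene, was barely detected, at 0.0388 FPKM at both ages. The 3 Egr members were thus all lower in older cells, but of them only Egr1 passed 1.5-fold, with or without the added 1 FPKM. Without it, Egr2 fell just short of that fold.

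Among the Nr4a receptors, Nr4a1 (Nur77) was the most abundant at both ages. It stood at 8.04 FPKM in younger and 6.00 FPKM in older cells, lower by 25.3%, with a log2(FPKM + 1) difference of -0.37. Nr4a2 (Nurr1), known for its part in dopamine neurons, had 3.40 and 2.79 FPKM, lower by 17.7%, with a difference of -0.21. Nr4a3 (Nor1) went the other way. Its values were 0.337 FPKM in younger and 0.619 FPKM in older cells, 1.84-fold higher without a pseudocount, and a log2(FPKM + 1) difference of 0.28. Its mean of 0.478 FPKM was under the filter, so it enters no count over expressed genes. The sum of the 3 receptors was 11.8 FPKM in younger and 9.42 FPKM in older cells, in which the share of Nr4a3 was 2.86% and 6.57%. The 3 receptors thus did not share a direction, which rests on the weakly expressed Nr4a3. Whether the cAMP element cores in their promoters bear on these levels was not tested.

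Nab2 and Srf, the corepressor and the upstream factor, were both well expressed. Srf stood at 18.2 FPKM in younger and 16.6 FPKM in older cells, with a log2(FPKM + 1) difference of -0.12. Nab2 had 18.0 and 20.6 FPKM, a difference of 0.19 in the higher direction. Nab1 had 33.9 and 35.04 FPKM, a difference of 0.05. Both corepressor values were thus a little higher in older cells. That of Nab1 lay between the quartiles of all expressed genes, -0.10 and 0.08. The summed FPKM of Egr1 to Egr3 was 2.02 times that of Nab1 and Nab2 at 2 months and 0.632 times at 6 months, so the Egr sum was above the Nab sum in younger cells and below it in older cells. This compares RNA levels and not protein. The exons of Nab2 share 40 bases with those of Stat6 and 864 bases with those of the antisense gene Gm16229, both on the opposite strand, and the library kit does not mark strand. Reads of those stretches cannot be assigned to 1 gene, and Stat6 was at 51.9 and 54.8 FPKM. No exon of another annotated gene overlapped the exons of the other 7 members.

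**Figure D2:**
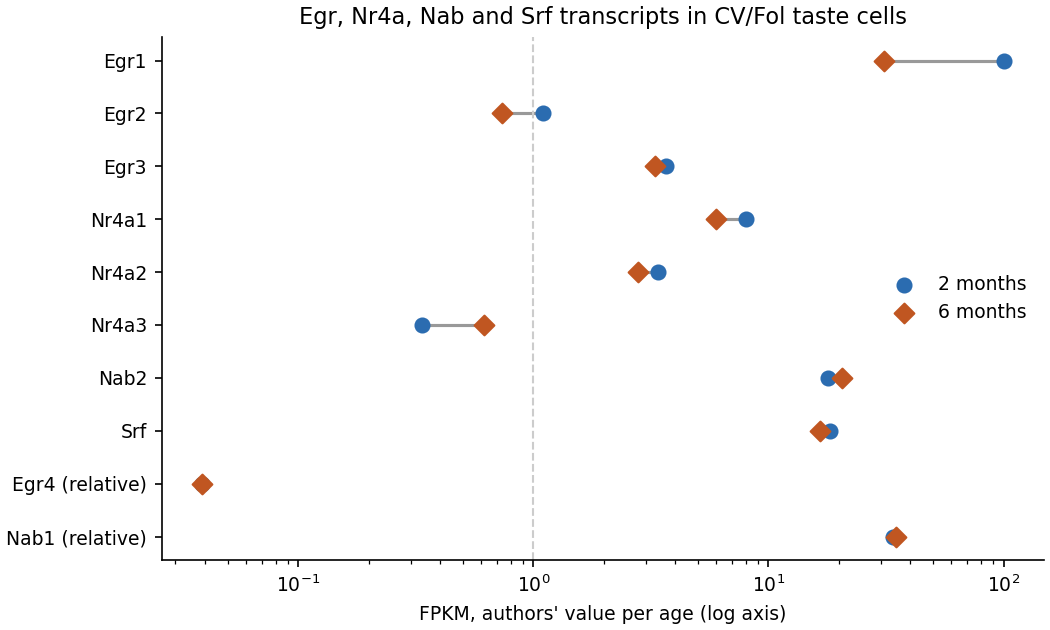
FPKM of each member and of the relatives Egr4 and Nab1 at 2 months (circles) and 6 months (diamonds), on a log x axis with the filter of 1 FPKM dashed. Each symbol is the authors' single value for an age, without an error bar; Egr1 spans 100.1 to 31.1 FPKM, Nr4a3 is higher at 6 months, and the 2 values of Srf, Nab1, Nab2 and Egr3 lie close together.

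The order of levels was nearly the same at both ages. Egr1 was followed by Srf and Nab2, then by Nr4a1, Egr3, Nr4a2, Egr2 and Nr4a3. Srf and Nab2 exchanged places between 2 and 6 months, and they differed by less than 5 FPKM at either age. Whether neighbours in this order differ beyond the spread between libraries cannot be said from 1 value per age. Egr1 was 12.5 times as high as Nr4a1 at 2 months and 5.18 times at 6 months, and it was 5.50 and then 1.87 times as high as Srf.

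Of the 6 expressed members, 5 had the lower value in older cells, as did 53.7% of the 12652 expressed genes. A difference of at least 1.5-fold downward was seen for 1 of the 6, against 1.72% of all genes, and a difference of at least 2-fold downward for the same gene, Egr1, against 1.04% of all genes. In the upward direction, 0 of the 6 passed 1.5-fold, against 1.05% of all genes. Without the genes listed at 0 at one age, these shares were 1.34% and 0.66% downward and 0.811% upward. The median log2(FPKM + 1) difference of the 6 was -0.17, and it was -0.01 over all genes. Without Egr1 it was -0.12. Because the members were picked from this contrast, nothing is read from these counts.

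The spread of all genes at a similar level gives a sense of size, although it is a spread over genes and not over replicates. It was taken in bins of level that each span 4-fold, over genes above 0 at both ages. Among the 1014 genes of the bin from 64 FPKM upward, the 5th percentile of the log2 ratio without a pseudocount was -0.38, and Egr1 had -1.69. Among the 4710 genes of 4 to 16 FPKM it was -0.30, and Nr4a1 had -0.42. Both genes thus lay outside the central range of their level. Nr4a3, at 0.88, was above the 95th percentile of 0.79 for the 1987 genes of 0.25 to 1 FPKM. Egr2, at -0.58, was inside the range of that bin, whose 5th percentile was -0.84. On the log2(FPKM + 1) scale, over all 1989 genes of that bin, the 5th percentile was -0.275. There Egr2, at -0.276, was just below it, so its place depends on the scale. Among genes of 1 to 4 FPKM the range of the ratio without a pseudocount ran from -0.45 to 0.45. Egr3 (-0.16) and Nr4a2 (-0.28) were within it. Srf (-0.13) and Nab2 (0.20) were within the range of -0.29 to 0.20 for genes of 16 to 64 FPKM, Nab2 at its upper edge.

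**Figure D3:**
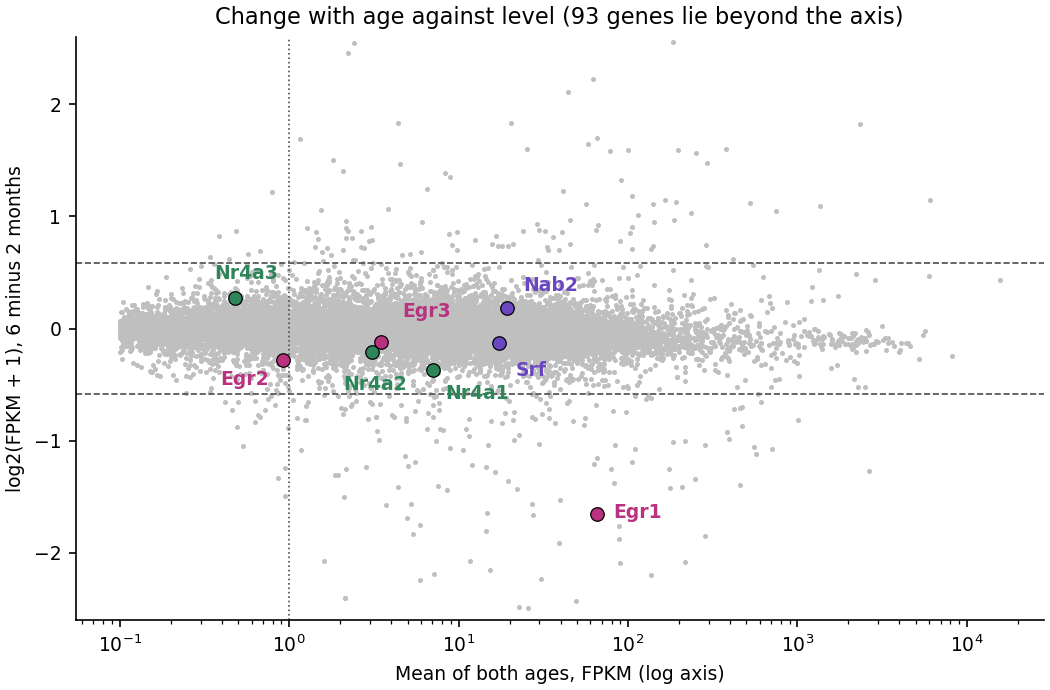
Difference of log2(FPKM + 1), 6 minus 2 months, against the mean of both ages in FPKM on a log axis, for all genes above 0.1 FPKM (grey) and the members (coloured by family). Dashed lines mark 1.5-fold and the dotted line 1 FPKM; genes beyond the y axis are not drawn, and Egr1 lies at -1.65, below most genes, while the other 7 members lie between -0.37 and 0.28.

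The genes with the most similar pair of values were looked up in the whole table, by distance on the log2(FPKM + 1) scale over the 2 ages. The nearest to Egr1 were Mir203, at 101 and 32.6 FPKM, Mir425, at 88.4 and 37.8 FPKM, and Jun, at 90.3 and 40.1 FPKM, with distances of 0.07, 0.33 and 0.39. Mir203 and Mir425 are microRNA genes, whose short length makes an FPKM value from poly(A)-selected libraries hard to read. The nearest to Nr4a1 were Vasn, Gm14005 and Selm, all within 0.03. With only 2 values per gene, such likeness describes a level and a difference and no more.

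The same class of genes was followed outside the members. Of 29 other immediate early genes, 27 were expressed and 23 of these had the lower value in older cells, beside 53.7% of all expressed genes, with a median log2(FPKM + 1) difference of -0.21. Lower by at least 1.5-fold were 8 of the 27, beside 1.72% of all expressed genes, and 0 were higher by that much, beside 1.05%. The 8 became 7 with upper quartile scaling of the 6 month values and also with a filter at a mean of 5 FPKM. At the low end were Fos, at -1.87, and Fosb, at -1.44, which encode partners of Jun in AP1. At the high end were Sgk1, a serum-induced kinase gene, at 0.06 and Myc at 0.04. Egr1 stayed close to Fos in proportion, since Fos was 1.40 times as high as Egr1 at 2 months and 1.203 times at 6 months. The list was drawn up with earlier results of these data known, and its lower values are no separate support for those of Egr1.

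Genes upstream of the members showed small differences, as most expressed genes did. Of all expressed genes, 1.72% were lower and 1.05% higher by 1.5-fold, so counts of 0 in lists this short are near those shares. None of the 15 genes of the ERK cascade, all of them expressed, differed by 1.5-fold in either direction. The log2(FPKM + 1) differences of the cascade ran from -0.08 for Hras1 to 0.18 for the kinase gene Rps6ka2. Map2k5 had -0.05 and Rps6ka1 0.10. Of 7 SRF cofactor genes, 6 passed the filter and 0 differed by 1.5-fold. Elk3 had -0.15 and Elk1 -0.03, while Scai had 0.14 and Elk4 0.12, and Myocd was listed at 0 at both ages. The CREB arm had 10 of 10 genes past the filter and 0 past 1.5-fold, from Crem, itself an inducible gene, at -0.15 and Prkacb at -0.06 to Crtc1 at 0.11 and the coactivator gene Ep300 at 0.19. Transcript levels of kinases and of CREB do not report their activity, which is set by phosphorylation.

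Genes downstream of the members were also followed. Of 16 SRF targets of the actin cytoskeleton, 14 passed the filter. Of these 1, the myosin light chain gene Myl9, was lower by at least 1.5-fold, at 1.79 and 0.732 FPKM, beside 1.72% of all expressed genes. Actb had -0.33, and at the other end Myh9 had 0.20 and Flna 0.33. The median of this list was -0.02. Of 14 genes described in other tissues as targets of Egr or Nr4a factors, 10 passed the filter, 0 differed by 1.5-fold and the median was -0.02. Of all expressed genes, 1.72% were lower and 1.05% higher by that fold, so a count of 0 here is near those shares. The lowest were Spp1 (osteopontin), at 1.33 and 0.711 FPKM, with a log2(FPKM + 1) difference of -0.44, and Pdgfa, a growth factor gene, at -0.22. The highest were E2f1 at 0.33 and F3 (tissue factor) at 0.25. The lower Egr1 value was thus seen beside differences of both signs in this list. Among the retinoid receptor partners of Nr4a1 and Nr4a2, Rxra had 0.11 and Rxrb -0.03, and Wt1, which shares Egr-like zinc fingers, was listed at 0 at both ages.

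**Figure D4:**
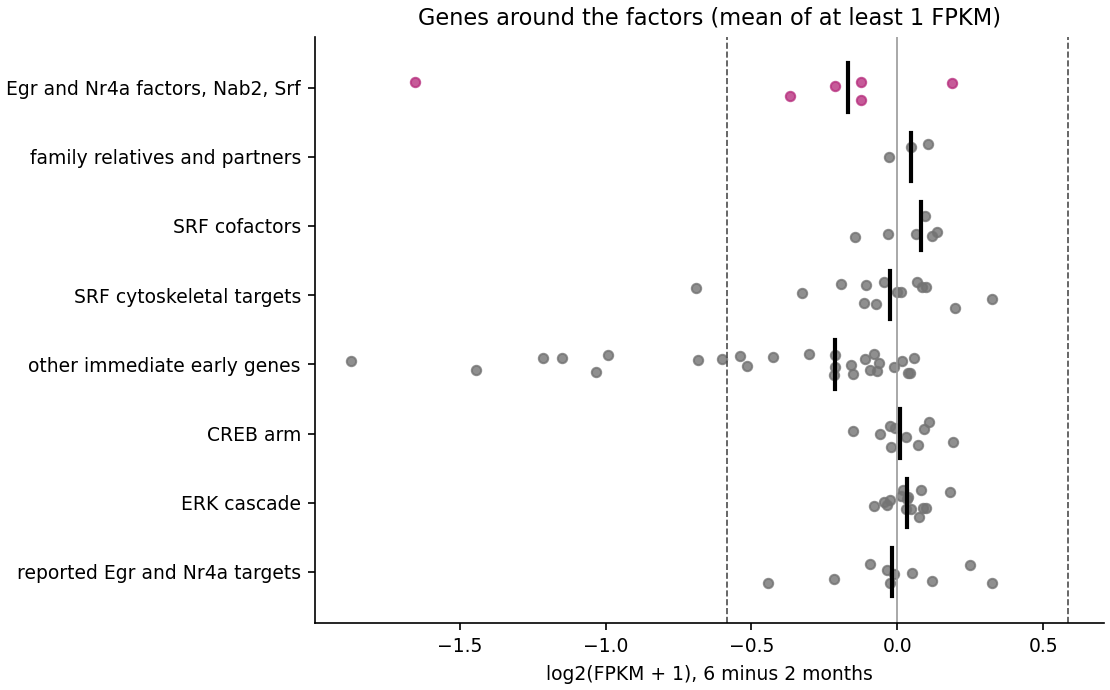
Difference of log2(FPKM + 1), 6 minus 2 months, for each expressed gene (points) in the members and 7 surrounding lists, with the median of each as a black bar and 1.5-fold dashed. The other immediate early genes reach from -1.87 to 0.06, and the lists of the ERK cascade, the CREB arm, SRF cofactors and described targets lie around 0.

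Markers of other cell types differed between the ages in part. Of 8 skeletal muscle genes 5 were expressed, all 5 higher by 1.5-fold or more in older cells, beside 1.05% of all expressed genes. The summed level of the 8 was 9.35 FPKM in younger and 20.99 FPKM in older cells. The 6 fibroblast markers summed to 43.6 and 28.7 FPKM, almost all of it from Dcn, since Col1a1, Col1a2, Col3a1 and Lum were each under 0.15 FPKM. The 5 basal keratinocyte markers summed to 3735 and 3770 FPKM, the 6 leukocyte markers to 310.2 and 268.5 FPKM, mostly from Lyz2, and the 4 endothelial markers to 1.96 and 1.95 FPKM. Egr2 is a Schwann cell gene as well, and the 6 Schwann cell markers summed to 20.5 and 19.3 FPKM. Most of that was Mbp, at 16.2 and 15.995 FPKM, while Sox10, picked out after its values were seen, had 1.95 and 1.05 FPKM. Of the 8 heat shock genes, which respond to stress of cells in handling, 0 were lower by 1.5-fold, beside 1.72% of all expressed genes. Higher by that much was 1, Hspa1a, at 29.8 and 49.0 FPKM, beside 1.05%. Their sums were 2995 and 2939 FPKM, mostly from Hspa8 and Hspb1, which hide the rest. The median log2(FPKM + 1) difference of the 8 was 0.13, and 3 were lower. Hspa1b, at 74.4 and 102.1 FPKM, and Dnajb1, at 72.2 and 88.5 FPKM, were higher in older cells, as was Hsph1. No marker was at 0 at both ages in any of these lists. The part of these cells or of stress in the levels of the members was not tested.

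The members' gene models were compared with those of expressed genes in GENCODE M21 on GRCm38, 1 coding transcript per gene. The Egr genes are short and have 2 exons each. Egr1 spans chromosome 18 from 34859823 to 34864984, Egr2 chromosome 10 from 67535475 to 67542188 and Egr3 chromosome 14 from 70077203 to 70082614. They cover 5162, 6714 and 5412 bases, where the median of 11335 expressed genes with a coding model was 23460 bases and 9 exons. Nab2, on chromosome 10 from 127660918 to 127668568, and Srf, on chromosome 17 from 46548329 to 46556175, are compact too but have 7 exons each. The Nr4a genes have 8 exons each and are longer. Nr4a1 lies on chromosome 15 from 101254269 to 101274795, Nr4a2 on chromosome 2 from 57106830 to 57124003 and Nr4a3 on chromosome 4 from 48045153 to 48086447, the only member longer than the median, at 41295 bases.

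The density of AU-rich pentamers was also compared with that of expressed genes. AU-rich elements in 3' untranslated regions are known to shorten the life of many immediate early transcripts. The pentamer ATTTA occurred more often per kilobase of 3' untranslated region than the median of expressed genes, 1.19 per kilobase, in all 8. This is a loose cut, since by definition about as many expressed genes lie above that median as below it. The highest density was that of Nr4a1, at 5.53 per kilobase. The lowest was that of Srf, at 1.33, from 1 pentamer in 754 bases. Egr1 had 1.65 per kilobase, from 2 pentamers in 1216 bases. The longer heptamer TATTTAT, which contains the pentamer, was found in Nr4a2, Nr4a3, Nab2 and Srf, that is in 4 of the 8, and in 27.1% of expressed genes. Egr1 had none. These counts were made after the expression values had been seen.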

How the data were processed

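RNA of pooled taste cells was measured by poly(A)-selected sequencing in 3 libraries at 2 months and 3 at 6 months. Per the submitters' processing notes and the methods, the authors mapped reads to GRCm38/mm10 with TopHat 2.0.7 and RefSeq gene models and quantified them with Cufflinks 2.1.1. They deposited 1 FPKM value per gene and age, which Cuffdiff made over the libraries of that age. How Cuffdiff scaled the libraries is not given in the sources used here. The deposited table also has a p-value column of the authors' own comparison, which was not used. The columns were assigned to ages by the group letters B and S of the table and of the sample titles.

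Differences were log2(FPKM + 1) at 6 months minus the same at 2 months, over expressed genes (mean of both ages not under 1 FPKM). With 1 value per age no test was possible, so genes past 1.5-fold or 2-fold were counted beside the same share of all genes. The members and gene lists were chosen with earlier results of these data known. Named genes were the members, Egr4, Nab1, the 2 lowest and 2 highest genes of each pathway list, the highest gene of a marker list and the 3 nearest patterns; any others, such as Sox10, Krt4 and the collagens, were picked with their values known. The gene model and AU-rich counts were also added then. Promoter windows were those of RefSeq, GRCm38.p6. A planned comparison of protein sequences was not made here. Functions were checked on simulated data. Scripts ran under Python 3.11.15 with matplotlib 3.10.9, pandas 2.3.3 and numpy 2.4.6.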

Additional observations from a re-analysis of the deposited data

How the results depend on the processing

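No paired analysis was possible because libraries of an age share 1 value, and for the same reason no replicate could be left out. The alternatives were a pseudocount of 0.1 FPKM, scaling of the 6 month values by 1.03 to the upper quartile of the 2 month values, no filter on level, and a stricter filter at a mean of 5 FPKM. Leaving out genes listed at 0 at one age was added after seeing the data. The numbers of members lower by 1.5-fold (1) and by 2-fold (1) were the same under each. None of the 8 members changed the sign of its difference under the scaling. A pseudocount added to both ages cannot change a sign, and scaling by 1.03 can do so only for very small differences. The kept signs are therefore no evidence of stability. The median log2 difference of the members was -0.17, and -0.21 with the pseudocount of 0.1 FPKM, -0.14 with the scaling and -0.25 with the stricter filter. With the pseudocount of 0.1 FPKM, Egr2 moved to -0.53 and Nr4a3 to 0.72, since both are weakly expressed. That value of Nr4a3 is past 1.5-fold upward, but the setting kept the filter of 1 FPKM, so Nr4a3 was not counted. No setting joined the smaller pseudocount with no filter. The count of lower SRF cytoskeletal targets went from 1 to 0 with the stricter filter, where Myl9 is left out. The count of lower described Egr and Nr4a targets went from 0 to 1 with the pseudocount of 0.1 FPKM, through Spp1. The medians of these lists were both 0.02 with the scaling in place of -0.02, so their sign depends on the scaling. Over all expressed genes, the count lower by 2-fold was 131, and 83 without the genes listed at 0 at one age, which moved Egr1 from position 85 to 37. Without values per library, no difference can be set against replicate spread here. The paper's own qRT-PCR and replicate measurements of Egr1 were not used.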
